A study of Mus musculus with 25 samples.

Results

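The genes described here are 44 canonical imprinted genes of the mouse, that is, genes of loci where a DNA methylation mark laid down in the egg or the sperm lets mainly 1 parental allele be transcribed. They were chosen by symbol from a list of 18 such loci and not from their values, though earlier results of these data were known. Each was found among the 55375 genes of the count table. In all, 41 had a mean of at least 1 read over the libraries and were tested, while *Igf2*, *Magel2* and *Peg12* had a mean of 0.24, 0.16 and 0.48 reads and were not. RNA had been sequenced from pools of 5 to 10 late two-cell embryos, collected 28 to 29 h after insemination or activation, in 25 libraries of 11 groups. IVF embryos (4 libraries) came from wild-type C57BL/6N oocytes, taken from females of 4 to 20 weeks, and sperm of adult DBA2 males. The paper's supplement gives a narrower age range for these females and males. Embryos of the other 10 groups were made by somatic cell nuclear transfer (SCNT), in which the nucleus of a BDF1 (C57BL/6N × DBA2) cumulus cell, the cell type that surrounds the oocyte, was placed in an enucleated BDF1 oocyte from a female. Control SCNT embryos (2 libraries) and those injected with 10 pL of *Kdm3a* or *Kdm4d* mRNA (2 libraries each, here *Kdm3a* and *Kdm4d* embryos) were cultured in cytochalasin B, an actin drug. All other SCNT embryos were cultured in latrunculin A, another actin drug, and were left untreated (LatA control, 2 libraries), or received 25 nM of the histone deacetylase inhibitor trichostatin A (TSA) for 8 h (2), 1 µM of the G9a inhibitor RK-701 (3) or A366 (2) for 24 h, or TSA together with RK-701, A366 or UNC0638, a further G9a inhibitor (2 each). The study asked whether removing methyl groups from lysine 9 of histone H3, with the demethylases KDM3A and KDM4D or by blocking the methyltransferase G9a, brings SCNT embryos closer to IVF embryos. The way the embryo was made changed together with the strain of the oocyte and with sex, since cumulus cells are female and IVF pools hold both sexes, so these cannot be told apart in any comparison with IVF embryos.

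An imprinted gene remembers which parent it came from because its control region is methylated on 1 parental copy, and that mark is protected by proteins such as ZFP57 and TRIM28 while most other DNA methylation of the embryo is lost. Paternally expressed genes often promote fetal growth and maternally expressed genes often restrain it, and many of them act in the placenta. In several loci a long non-coding RNA, such as *Kcnq1ot1* or *Airn*, is made from 1 parental copy and silences its neighbours on the same chromosome. A donor nucleus brings the imprints of a body cell into the oocyte, and the two-cell stage of the mouse is when transcription of the embryo's own genome begins in earnest. The counts sum the parental alleles, so that a level says nothing about which allele was read. In pooled embryos, a gene that is read in fewer embryos and one that is read less in each embryo also cannot be told apart.

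Reads on genes ranged from 6662727 to 21188688 per library. The injected mRNAs marked their groups: *Kdm3a* was at 3466 and 3116 CPM (reads scaled to a common library size) in *Kdm3a* embryos against 109 to 266 elsewhere, and *Kdm4d* was at 18520 and 12520 CPM in *Kdm4d* embryos against at most 5.08 elsewhere. The 10 markers of the two-cell embryo summed to 2075 to 2551 CPM in IVF libraries and to 723 to 3017 in SCNT libraries. The 9 oocyte markers found summed to 1495 to 1862 CPM in IVF libraries, 1954 to 2455 in the RK-701 libraries and 758 to 1678 in the other SCNT libraries. These sums include *Bmp15*, which lies on the X chromosome and was not tested. Over the 8 tested oocyte markers, the median log2 fold change of RK-701 against IVF embryos was -0.18, so the higher sums with RK-701 did not hold for these markers. The 12 cumulus cell markers summed to 114 to 161 CPM in IVF libraries and 124 to 283 in SCNT libraries. Most of each sum was *Nr5a2*, at 92.3 to 137 CPM in IVF and 103 to 264 CPM in SCNT libraries, so the sum mainly followed this gene and is no measure of cumulus cell RNA. In the mean of the SCNT groups against IVF, 4 of 10 two-cell markers and 4 of 8 tested oocyte markers were called lower and 1 of 9 tested cumulus markers higher, where 12.5% of all genes were called lower and 6.62% higher, and the part of these cell types and stages in the results on imprinted genes was not tested. Of the oocyte and two-cell markers, 0 were without reads in any group. Among replicates, the pair of LatA control libraries agreed least (r = 0.960 across genes). Each agreed better with a library of another group, LatA control 1 with control SCNT 2 (r = 0.976) and LatA control 2 with A366 1 (r = 0.972). Some libraries of other groups also agreed best outside their own group.

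Imprinted genes differed widely in level at this stage. Per exon length, 13 of the 44 had a mean above 10 TPM (a count scaled by exon length and by the library's total), 14 lay between 1 and 10 TPM, and 17 were below 1 TPM. The highest were *Mcts2*, an intronless copy of a translation factor gene that lies in an intron of *H13* (219 TPM), *Impact*, a brake on the stress kinase GCN2 (144 TPM), *Snrpn*, a core protein of the spliceosome (73.8 TPM), *Phlda2*, a brake on placental growth (44 TPM), *Zrsr1*, a splicing factor (30.9 TPM), and *Igf2r*, the receptor that takes the growth factor IGF2 up for degradation (23.9 TPM). By contrast, *H19* was read in 13 libraries and *Igf2* in 4. A read was present in every library for 29 of the 44 genes.

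**Figure D1:**
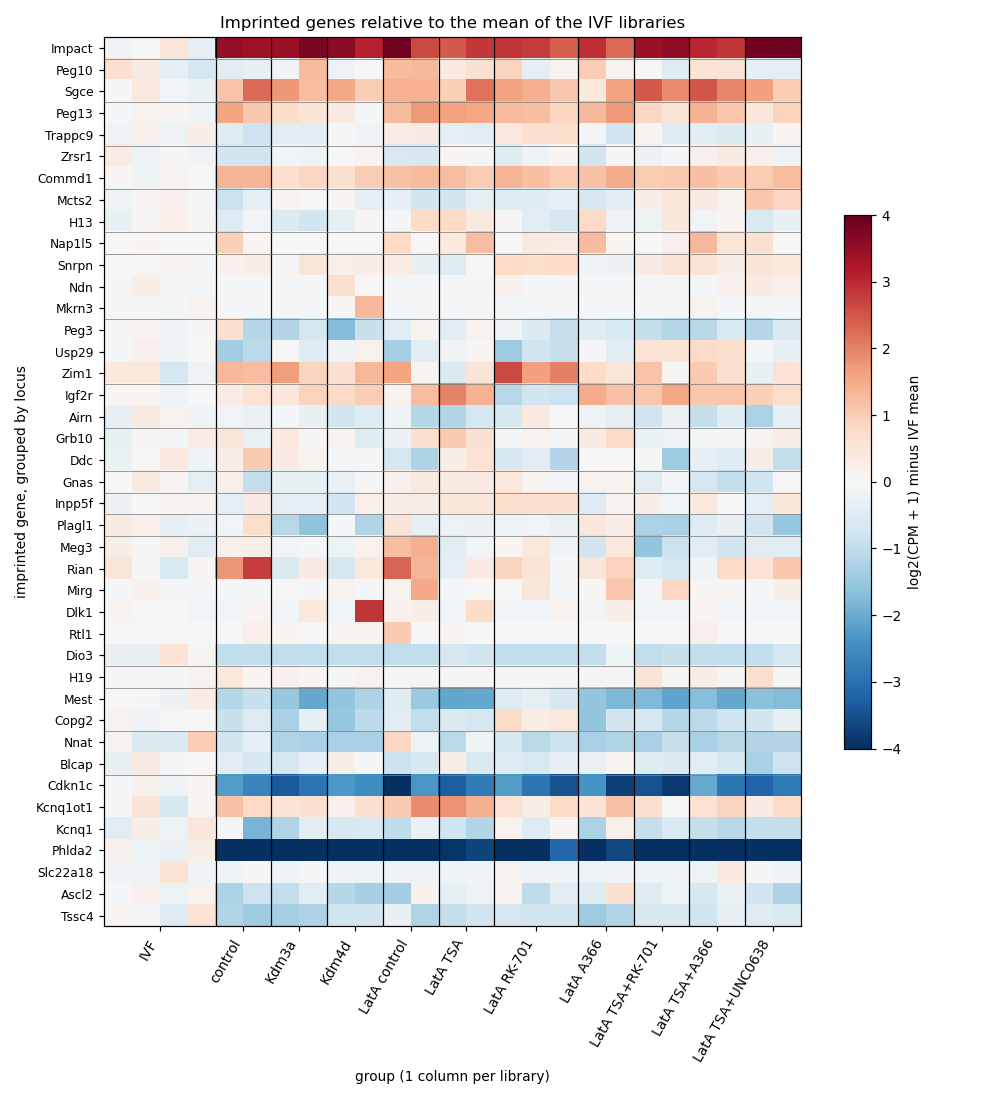
Level of the 41 tested imprinted genes (rows, grouped by locus) in each of the 25 libraries (columns, grouped by treatment), as log2(CPM + 1) minus the mean of the 4 IVF libraries, with the colour scale ending at -4 and 4. *Impact* and *Sgce* stood above and *Phlda2* and *Cdkn1c* below the IVF level in all 21 SCNT libraries.

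Sequences upstream of 4 genes, picked by hand, are shown as examples. *Phlda2* had the largest fall in SCNT embryos of the genes with many reads, *Mest* fell with nuclear transfer, and *Plagl1* and *Mcts2* changed with treatments. Other called genes are not shown. Among them, the windows of *Igf2r*, *Usp29* and *Commd1* held 0 of the hexamers described below. Those of *Copg2*, *Zim1* and *Nap1l5* and 1 window of *Meg3* held 1 each. Each shown sequence is the 250 bases before the transcription start in RefSeq (GRCm38.p6), 5′ to 3′ on the strand of the gene. *Phlda2* lies on the minus strand, and its window, chr7:143502525-143502774, is shown with its 21 CpG dinucleotides in capitals. The windows of *Mest* (chr6:30737800-30738049, plus strand), *Plagl1* (chr10:13090582-13090831, plus strand) and *Mcts2* (chr2:152686898-152687147, plus strand) show in capitals the hexamer TGCCGC or its reverse complement, which ZFP57 binds when its CpG is methylated.
Phlda2: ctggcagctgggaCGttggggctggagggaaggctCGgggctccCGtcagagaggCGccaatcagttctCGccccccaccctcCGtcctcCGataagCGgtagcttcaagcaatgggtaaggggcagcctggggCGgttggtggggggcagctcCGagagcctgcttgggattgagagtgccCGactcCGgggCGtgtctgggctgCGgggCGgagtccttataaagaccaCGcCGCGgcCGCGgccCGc
Mest: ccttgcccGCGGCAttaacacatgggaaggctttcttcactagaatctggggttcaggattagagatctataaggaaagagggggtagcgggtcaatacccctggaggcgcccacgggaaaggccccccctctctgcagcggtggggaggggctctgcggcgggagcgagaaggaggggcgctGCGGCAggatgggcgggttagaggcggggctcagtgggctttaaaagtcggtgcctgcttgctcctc
Plagl1: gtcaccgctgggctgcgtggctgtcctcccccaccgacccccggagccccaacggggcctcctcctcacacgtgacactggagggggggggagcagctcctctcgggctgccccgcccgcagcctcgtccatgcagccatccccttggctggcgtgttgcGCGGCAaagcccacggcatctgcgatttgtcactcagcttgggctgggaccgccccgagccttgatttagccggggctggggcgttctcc
Mcts2: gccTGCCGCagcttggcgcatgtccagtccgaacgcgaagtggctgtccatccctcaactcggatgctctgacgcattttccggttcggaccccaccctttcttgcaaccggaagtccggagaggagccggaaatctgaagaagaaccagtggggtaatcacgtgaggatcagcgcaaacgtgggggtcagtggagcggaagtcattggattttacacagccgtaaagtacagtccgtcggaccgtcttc

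The shown window of *Mest* held 2 hexamers, those of *Plagl1* and *Mcts2* held 1 each, and that of *Phlda2* held 0. That window of *Mest* was chosen among its windows with a hexamer. Another *Mest* window, chr6:30733256-30733505, held 0 hexamers and 7 CpG dinucleotides. CpG dinucleotides numbered 14 in the shown window of *Mest*, 19 in that of *Plagl1* and 20 in that of *Mcts2*. RefSeq windows were found for 35 of the 44 genes, 50 windows in all, of which 8 windows of 7 genes held the hexamer on either strand. Of all 32851 windows of this length, 8.68% held it. The median number of CpG dinucleotides was 10 in the windows of imprinted genes and 6 in all windows, and each hexamer contains 1 of the CpG dinucleotides counted.

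To see which imprinted genes differed with nuclear transfer, the mean of the 10 SCNT groups was compared with IVF embryos. A gene was called when its adjusted p was under 0.05 over the 25794 autosomal genes tested and its fold change over 2. Of the 41 imprinted genes, 5 were higher in SCNT embryos (*Commd1*, *Impact*, *Peg13*, *Sgce* and *Zim1*) and 6 were lower (*Cdkn1c*, *Dio3*, *Kcnq1*, *Mest*, *Nnat* and *Phlda2*), which is 26.8% of them. Of all genes tested, 19.1% were called (6.62% higher and 12.5% lower). The median log2 fold change was -0.20 over the imprinted genes and -0.10 over all genes. By the allele that is usually expressed, 3 of 20 paternally expressed genes were higher and 3 lower, 1 of 13 maternally expressed genes was higher and 3 lower, and of 8 genes imprinted in some isoforms or tissues, 1 was higher and 0 were lower.

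The *Kcnq1ot1* domain of chromosome 7 held the 2 largest falls of the genes with many reads. *Phlda2* (chr7:143501545-143503150 in mm10, minus strand) was at 105, 82.3, 76.8 and 110 CPM in the IVF libraries and at 0.515 to 9.69 CPM (median 3.13) in the 21 SCNT libraries. Every SCNT library was below every IVF library. The log2 fold change was -4.88 ± 0.26 (SE; 95% interval -5.41 to -4.35), a level 29.5-fold lower, with an adjusted p of 1.1e-13 (edgeR's quasi-likelihood test, Benjamini-Hochberg). *Cdkn1c* (chr7:143458339-143461050, minus strand), which encodes the cell cycle inhibitor p57, was at 16.4, 19.3, 14.6 and 18.1 CPM in IVF libraries and at 0.109 to 3.43 CPM (median 1.42) in SCNT libraries, again without overlap. It fell by 3.61 ± 0.35 on the log2 scale (12.2-fold, adjusted p = 7.6e-09). Both are read from the maternal copy and are known to limit growth of the placenta or fetus.

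Other genes of the domain moved less. *Tssc4*, a splicing factor of this domain, was at 24.4, 22.0, 15.8 and 34.0 CPM in IVF libraries and at 7.89 to 18.7 CPM in SCNT libraries, 18 of which lay below the IVF range, and its log2 fold change of -0.97 ± 0.17 passed on p (adjusted p = 4.6e-05) but not on size. *Kcnq1*, a potassium channel subunit, was at 2.50 to 5.51 CPM in IVF and 0.319 to 4.53 CPM in SCNT libraries (log2 fold change -1.01 ± 0.38, adjusted p = 0.041). Its call was lost when any of 9 single libraries was left out (IVF 2, 3 or 4, control SCNT 2, LatA control 1, *Kdm3a* 1, A366 1, TSA+RK-701 1 or TSA+A366 2), with log2 fold changes of -1.11 to -0.81 and adjusted p of 0.0266 to 0.191. *Ascl2*, a transcription factor of the trophoblast, had a log2 fold change of -1.14 (95% interval -2.15 to -0.13, adjusted p = 0.074). *Slc22a18*, a transporter, had at most 10 reads in any library. The silencing RNA itself, *Kcnq1ot1* (chr7:143203458-143296549, minus strand), was at 36.2, 50.3, 22.4 and 37.2 CPM in IVF libraries and at 35.2 to 132 CPM in SCNT libraries, of which 16 lay above the IVF range (log2 fold change 0.79 ± 0.19, adjusted p = 0.0015, under 2-fold). *Kcnq1ot1* runs antisense through *Kcnq1*, and counting ignored strand, so reads of one in the other's exons cannot be assigned.

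**Figure D2:**
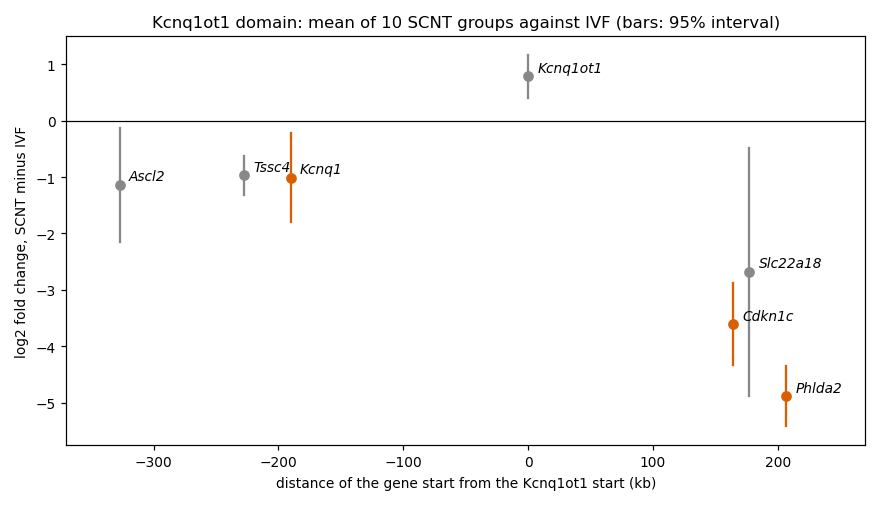
Log2 fold change between the mean of the 10 SCNT groups and IVF embryos (points, with 95% intervals) for the 7 genes of the *Kcnq1ot1* domain, against distance in kb from the start of *Kcnq1ot1*, with called genes in orange. The points for *Cdkn1c* and *Phlda2*, at 164.5 and 206.6 kb, lie lowest among the genes whose intervals are narrow, and *Kcnq1ot1* itself lies above 0.

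*Impact*, on chromosome 18, had the largest rise. It was at 26.1, 29.1, 41.1 and 23.0 CPM in IVF libraries and at 142 to 445 CPM (median 260.8) in the 21 SCNT libraries, all above the IVF range. The log2 fold change was 3.22 ± 0.21 (9.32-fold, adjusted p = 4.1e-12). In mouse embryos its paternal copy is the one normally expressed.

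*Sgce* (chr6:4674350-4747207, minus strand), which encodes a sarcoglycan of the cell membrane and is paternally expressed, was at 2.19, 3.35, 2.08 and 1.75 CPM in IVF libraries and at 3.44 to 17.4 CPM (median 8.62) in SCNT libraries. All 21 SCNT libraries exceeded the IVF range, and the log2 fold change was 1.92 ± 0.32 (3.79-fold, adjusted p = 3.4e-05). Its neighbour *Peg10*, a retrotransposon-derived gene needed in the placenta, was called in no comparison, with 0 to 1.56 CPM in IVF libraries and 0.139 to 2.98 CPM in SCNT libraries.

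*Commd1* (chr11:22896136-22982382, minus strand), a protein of copper transport and endosomal sorting whose intron holds *Zrsr1*, was at 4.22, 3.29, 4.29 and 3.98 CPM in IVF libraries and at 6.53 to 12.8 CPM (median 9.98) in SCNT libraries. Again all 21 SCNT libraries were above the IVF range (log2 fold change 1.29 ± 0.19, 2.45-fold, adjusted p = 6.1e-06). *Zrsr1*, the paternally expressed gene inside it, was at 66.8, 46.3, 56.3 and 48.6 CPM in IVF libraries and 30.4 to 69.3 CPM (median 50.0) in SCNT libraries, and was called in no comparison. The exons of these 2 genes share 412 bases on opposite strands.

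*Peg13*, a non-coding RNA made from an intron of *Trappc9*, was at 0.468, 0.683, 0.650 and 0.349 CPM in IVF libraries (3 to 11 reads) and at 0.490 to 4.00 CPM (median 2.30) in SCNT libraries. Of the 21 SCNT libraries, 20 were above the IVF range (log2 fold change 1.92 ± 0.39, adjusted p = 3.2e-04). *Zim1*, a zinc finger gene of the *Peg3* locus, was at 2.34, 2.36, 0.585 and 1.19 CPM in IVF libraries and at 0.678 to 14.7 CPM (median 3.59) in SCNT libraries, of which 17 were above the IVF range. Its log2 fold change of 1.22 ± 0.43 (adjusted p = 0.030) was 0.92 (adjusted p = 0.142) without IVF 3 and 1.09 (adjusted p = 0.104) without IVF 4.

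*Mest* (chr6:30723547-30748465, plus strand), a paternally expressed hydrolase of mesoderm and placenta, was at 30.8, 30.2, 26.5 and 38.3 CPM in IVF libraries and at 6.48 to 23.5 CPM (median 9.83) in SCNT libraries. Every SCNT library was below every IVF library, and *Mest* fell by 1.58 ± 0.15 on the log2 scale (2.99-fold, adjusted p = 8.4e-09). *Copg2* (chr6:30747554-30896794, minus strand), a coat protein of Golgi vesicles that meets *Mest* tail to tail, was at 22.0, 18, 20.0 and 20.2 CPM in IVF libraries and at 6.12 to 33.7 CPM (median 11.7) in SCNT libraries. *Copg2* was below the IVF range in 18 SCNT libraries and above it in 3, the RK-701 libraries (log2 fold change -0.74 ± 0.18, adjusted p = 0.0020, under 2-fold). The exons of *Mest* and *Copg2* overlap over 912 bases, and a pair falling there was not counted for either.

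**Figure D3:**
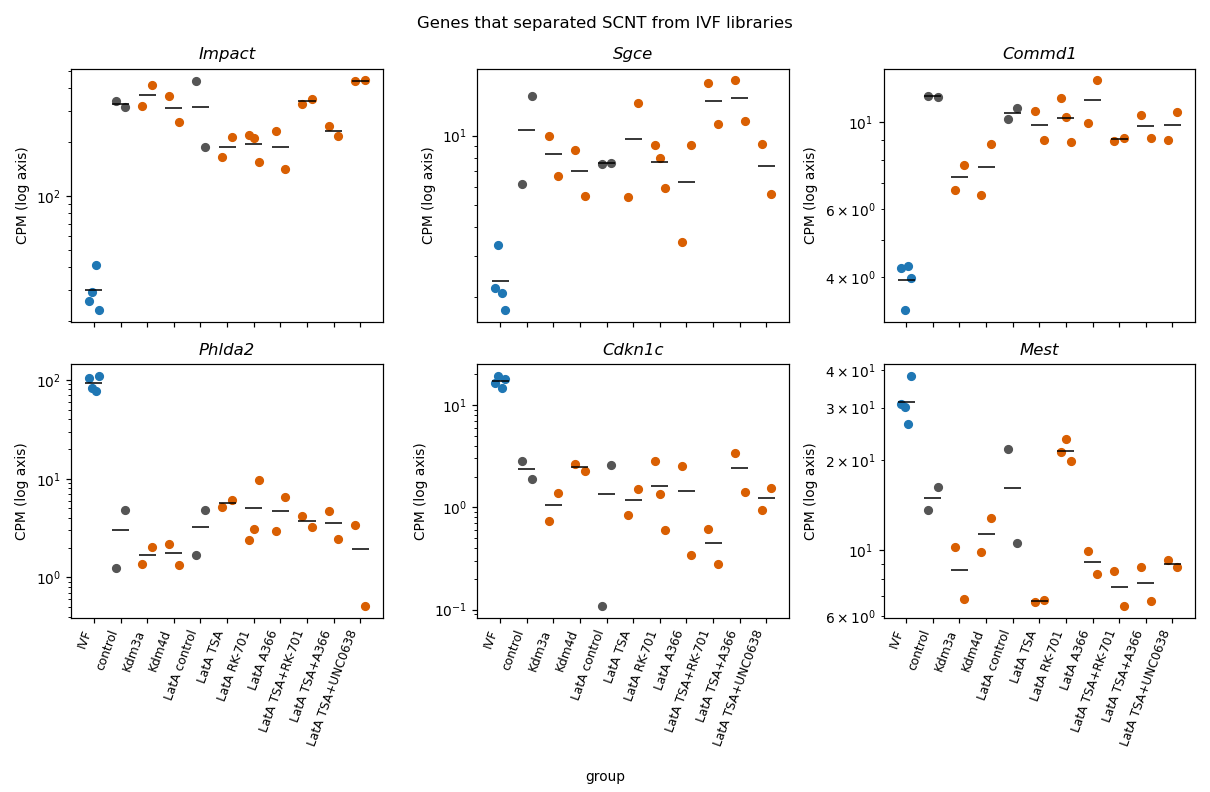
CPM on a log axis in each library (points) of the 11 groups for *Impact*, *Sgce*, *Commd1*, *Phlda2*, *Cdkn1c* and *Mest*, with a bar at each group mean and with IVF in blue, untreated SCNT in grey and treated SCNT in orange. For these 6 genes all 21 SCNT libraries lie outside the range of the 4 IVF libraries.

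The last 2 genes called lower had few reads. *Dio3*, which inactivates thyroid hormone, had 4, 10, 29 and 15 reads in the IVF libraries and 0 reads in 16 of 21 SCNT libraries, with 1 to 11 reads in the other 5 (adjusted p = 5.4e-05). *Nnat*, a small membrane protein of the endoplasmic reticulum, had 11, 10, 10 and 56 reads in IVF libraries and 0 to 62 reads in SCNT libraries, where the 62 reads were in LatA control 1 (adjusted p = 6.4e-05). Without molecular identifiers, such counts carry amplification noise beyond counting error, and no fold change is read from them.

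Of the genes not called, 4 passed on p only besides *Tssc4* and *Kcnq1ot1*: *Igf2r* (log2 fold change 0.83, adjusted p = 1.6e-04), *Copg2*, *Peg3*, a zinc finger gene that acts in growth and maternal behaviour (-0.68, adjusted p = 0.027), and *Blcap*, a neighbour of *Nnat* (-0.49, adjusted p = 0.012). *Snrpn* was at 45.9, 46.4, 49.4 and 45.8 CPM in IVF libraries and at 32.5 to 81.6 CPM (median 56.7) in SCNT libraries. Its log2 fold change was 0.24 (95% interval -0.003 to 0.49), and 34.1% of its exon bases are shared with other annotated genes, among them *Snurf*. *Mcts2*, at 63.7, 79.0, 84.2 and 71.9 CPM in IVF libraries and 40.8 to 159 CPM in SCNT libraries, had a log2 fold change of -0.13 (95% interval -0.37 to 0.11).

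**Figure D4:**
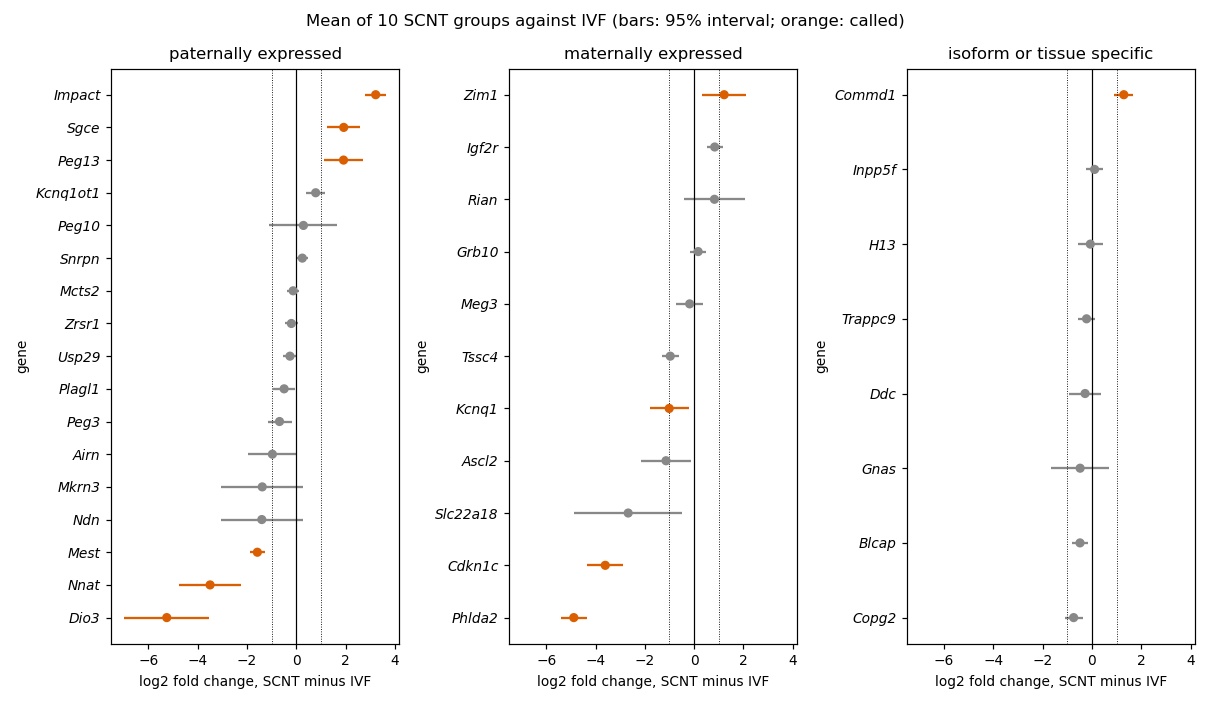
Log2 fold change between the mean of the 10 SCNT groups and IVF embryos, with 95% intervals, for the 36 of 41 tested imprinted genes whose interval spanned less than 6, sorted by the allele usually expressed; orange marks called genes and dotted lines stand at -1 and 1. *Phlda2* and *Cdkn1c* lie farthest to the left with narrow intervals, and *Impact* farthest to the right.

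Each SCNT group was then compared with IVF embryos on its own, to see which of these differences remained after treatment. These 10 comparisons share the 4 IVF libraries. *Impact* and *Sgce* were higher, and *Phlda2* and *Cdkn1c* lower, in all 10 groups. *Impact* had log2 fold changes of 2.64 (A366) to 3.89 (TSA+UNC0638), and *Phlda2* of -5.80 (*Kdm3a*) to -4.04 (TSA), and neither lost a call when any library was left out. *Cdkn1c* had log2 fold changes of -5.24 (TSA+RK-701) to -2.80 (*Kdm4d*), and its call was lost without either library of control SCNT or of *Kdm4d* embryos, without A366 2, without TSA+A366 2 or without TSA+UNC0638 1 (log2 fold changes of -3.46 to -2.31, adjusted p of 0.0523 to 0.174). *Sgce* had log2 fold changes of 1.42 (A366) to 2.62 (TSA+A366), and its call was lost without control SCNT 2, *Kdm3a* 1, *Kdm4d* 1, TSA 2, TSA+UNC0638 1, or, for A366, without IVF 4 or A366 2 (log2 fold changes of 0.50 to 1.5, adjusted p of 0.0544 to 0.602).

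*Mest* was called lower in 8 groups, with log2 fold changes of -2.22 (TSA) to -1.07 (control SCNT). It was not called in LatA control embryos (-0.95, adjusted p = 0.016) or RK-701 embryos (-0.55, adjusted p = 0.118). *Commd1* was called higher in 8 groups, all but *Kdm3a* and *Kdm4d* embryos. In *Kdm3a* embryos *Commd1* was at 6.71 and 7.78 CPM and in *Kdm4d* embryos at 6.53 and 8.82 CPM, still above the 4.29 CPM of the highest IVF library. *Peg13* was called higher in 6 groups. *Nnat* was lower in 5 groups, and in each of them the call was lost when at least 2 different libraries were left out in turn. *Igf2r* was higher in 4 groups: TSA, A366, TSA+RK-701 and TSA+A366.

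Called genes numbered 9 to 11 of 41 in every group. The share of all genes called fell between 9.29% and 15.3%. In control SCNT embryos 6 imprinted genes were higher and 5 lower (15.0% of all genes called, 8.12% higher and 6.87% lower), and in LatA control embryos 8 were higher and 3 lower (15.3% of all genes called, 8.80% higher and 6.51% lower). In *Kdm3a* embryos 3 were higher and 7 lower (12.8% of all genes called, 6.56% higher and 6.25% lower), as in *Kdm4d* embryos (9.29% of all genes called, 4.80% higher and 4.49% lower). With TSA they were 7 and 3 (14.9% of all genes called, 7.74% higher and 7.17% lower), with RK-701 5 and 4 (11.8% of all genes called, 6.62% higher and 5.20% lower), and with A366 5 and 6 (15.2% of all genes called, 8.03% higher and 7.16% lower). With TSA+RK-701 they were 4 and 5 (12.2% of all genes called, 6.22% higher and 5.99% lower), with TSA+A366 6 and 4 (10.9% of all genes called, 5.48% higher and 5.43% lower), and with TSA+UNC0638 3 and 6 (9.84% of all genes called, 5.49% higher and 4.35% lower). *Dlk1*, a Notch-like ligand, was called higher in *Kdm4d* embryos alone, on 96 reads in *Kdm4d* 2 and 0 in *Kdm4d* 1, and *Nap1l5*, a histone chaperone gene inside *Herc3*, was called higher with TSA and with TSA+A366 on 4 to 21 reads per library. The *Dlk1* call was lost without IVF 2, 3 or 4, had an adjusted p of 0.0755 with DESeq2, and turned to -2.96 (adjusted p = 0.683) without *Kdm4d* 2. Both *Nap1l5* calls were lost without any 1 of the 4 IVF libraries or either treated library (adjusted p of 0.0519 to 0.274 with TSA and of 0.0609 to 0.287 with TSA+A366).

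The untreated controls differed from IVF embryos in genes outside the core of shared changes. In control SCNT embryos, *Usp29*, a ubiquitin protease of the *Peg3* locus, was at 34.6 and 43.0 CPM against 88.7, 106.5, 84.9 and 92.9 CPM in IVF libraries (log2 fold change -1.26 ± 0.23, adjusted p = 1.9e-04), and *Tssc4* fell by 1.45 (adjusted p = 9.3e-04). *Rian*, a maternally expressed non-coding RNA of the *Dlk1*-*Meg3* locus, was at 4.84 and 10.8 CPM there and at 0.130 to 1.41 CPM in IVF libraries (adjusted p = 0.0028). Of the 11 calls in control SCNT embryos, those of *Cdkn1c* and *Sgce* were lost in the omissions given above. *Rian* was lost without control SCNT 2 (log2 fold change 2.66), and *Mest* without IVF 4 (-0.96, adjusted p = 0.0262) or control SCNT 1 (-0.94). *Zim1* was lost without IVF 3 (1.40, adjusted p = 0.117), IVF 4 (1.57, adjusted p = 0.0985) or either control library (1.65 and 1.74).

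In LatA control embryos, *Meg3*, the non-coding RNA that leads the maternally expressed transcripts of the *Dlk1*-*Meg3* locus, was at 10.4 and 12.1 CPM against 4.68, 3.98, 4.42 and 2.58 CPM in IVF libraries (log2 fold change 1.53 ± 0.41, adjusted p = 0.0078). *Rian* was at 7.71 and 3.45 CPM (adjusted p = 0.0095), and *Kcnq1ot1* at 74.0 and 132 CPM (log2 fold change 1.49 ± 0.27, adjusted p = 1.6e-04). *Rtl1*, a retrotransposon-derived gene of the same locus that *Meg3* leads, was called on 20 reads in LatA control 1, with 0 in LatA control 2 and in all IVF libraries. *Meg3* was lost without LatA control 2 (1.43, adjusted p = 0.0644), *Rian* without LatA control 1 (2.14, adjusted p = 0.13), *Rtl1* without any 1 of the 4 IVF libraries (adjusted p of 0.0806 to 0.0979) or without LatA control 1, which held all of its reads in this comparison and without which it was below the minimum mean of 1 read, and *Dio3* without any 1 of the 6 libraries compared (adjusted p of 0.0541 to 0.166). Between the controls, 0 of 41 imprinted genes and 0.0116% of all genes were called by edgeR, 6 imprinted genes had an unadjusted p under 0.05, and DESeq2 called 0.

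Treatments were next compared with their own untreated control. *Kdm3a* and *Kdm4d* embryos share the control SCNT libraries, and all inhibitor groups share the LatA control libraries. With *Kdm3a* mRNA, 1 imprinted gene was higher and 2 lower (4.17% of all genes called, 2.39% higher and 1.78% lower), and with *Kdm4d* mRNA 1 was higher and 1 lower (3.14% of all genes called, 2.10% higher and 1.04% lower). The summed two-cell markers were 2576 to 3017 CPM in *Kdm3a*, 1843 to 2118 CPM in *Kdm4d* and 1071 to 1358 CPM in control SCNT libraries, and their part in these results was not tested. *Usp29* (chr7:6730583-6967219, plus strand) was at 92.7 and 66.7 CPM in *Kdm3a* and 83.9 and 102 CPM in *Kdm4d* embryos, against 34.6 and 43.0 CPM in control SCNT embryos. It rose by 1.04 ± 0.25 with *Kdm3a* (adjusted p = 0.012) and by 1.26 ± 0.25 with *Kdm4d* (adjusted p = 0.0041) on the log2 scale. Of these 4 libraries, 2 were within the range of the IVF libraries and 2 below it. The call with *Kdm3a* was lost without control SCNT 1 (0.86, adjusted p = 0.192) or *Kdm3a* 1 (0.78, adjusted p = 0.146), and that with *Kdm4d* without control SCNT 1 (1.08, adjusted p = 0.118) or *Kdm4d* 2 (1.11, adjusted p = 0.0674). Of the exon bases of *Usp29*, 19.7% are shared with other genes, most of them with *Zim3* on the opposite strand.

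*Plagl1* (chr10:13060504-13131694, plus strand), a zinc finger protein that restrains cell growth, was at 5.08 and 3.34 CPM in *Kdm3a* embryos against 11.2 and 20.2 CPM in control SCNT embryos, and at 15.9, 14.2, 9.36 and 10.2 CPM in IVF libraries. It fell by 1.89 ± 0.43 on the log2 scale (adjusted p = 0.0078), a call lost without control SCNT 2 (-1.41, adjusted p = 0.0911) or *Kdm3a* 2 (-1.63, adjusted p = 0.112). *Rian* was at 0.157 and 1.20 CPM in *Kdm3a* and 0.0806 and 1.33 CPM in *Kdm4d* embryos, against 4.84 and 10.8 CPM in control SCNT embryos. Its adjusted p was 0.035 with *Kdm3a* and 0.046 with *Kdm4d*, and the calls were lost in 3 of 4 and 4 of 4 single omissions of these libraries (*Kdm3a*: without control SCNT 1 or 2 or *Kdm3a* 1, adjusted p of 0.0681 to 0.245; *Kdm4d*: without any, adjusted p of 0.0525 to 0.314). *Impact* and *Phlda2*, which differed from IVF in every group, had intervals that include 0 here. *Impact* changed by 0.17 (95% interval -0.43 to 0.77) with *Kdm3a* and -0.07 (-0.67 to 0.53) with *Kdm4d*, and *Phlda2* by -0.89 (-2.31 to 0.52) and -0.84 (-2.26 to 0.59).

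With TSA alone, edgeR called 0 of 41 imprinted genes (0.318% of all genes called, 0.159% higher and 0.159% lower), 11 had an unadjusted p under 0.05, and DESeq2 called 2. With A366 alone, edgeR called 0 (0.120% of all genes called, 0.0814% higher and 0.0388% lower), 11 had an unadjusted p under 0.05, and DESeq2 called 1. The lowest p values with TSA were those of *Mest* (log2 fold change -1.27 ± 0.32, adjusted p = 0.076) and *Meg3* (-1.87 ± 0.51, adjusted p = 0.094), and the lowest with A366 was that of *Nnat* (adjusted p = 0.137).

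With RK-701 alone, 1 imprinted gene was higher and 1 lower (3.35% of all genes called, 1.73% higher and 1.62% lower). *Igf2r* (chr17:12682406-12769664, minus strand) was at 20.0, 25.8 and 24.9 CPM in RK-701 libraries, against 48.9 and 106 CPM in LatA control libraries and 47.5, 46.8, 39.7 and 44.8 CPM in IVF libraries. RK-701 embryos were the only SCNT group with libraries below the IVF range. *Igf2r* fell by 1.72 ± 0.25 on the log2 scale (3.29-fold, adjusted p = 2.0e-04), and the call was kept when each library was left out. *Copg2* was at 33.7, 25.1 and 27.2 CPM against 14.2 and 9.68 CPM in LatA control libraries, a rise of 1.26 ± 0.33 (adjusted p = 0.022) that was lost without LatA control 2 (1.01, adjusted p = 0.277), RK-701 1 (1.14, adjusted p = 0.0784) or RK-701 3 (1.31, adjusted p = 0.0524). The summed oocyte markers were 1954 to 2455 CPM in the RK-701 libraries and 1054 to 1246 CPM in the LatA control libraries, and their part in these results was not tested. These sums include the untested *Bmp15* of the X chromosome, and over the 8 tested oocyte markers the median log2 fold change was 0.71.

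More genes were called where TSA was combined with a G9a inhibitor, both among the imprinted genes and among all genes. With TSA+RK-701, 1 was higher and 5 lower (6.17% of all genes called, 3.65% higher and 2.52% lower), with TSA+A366 1 and 3 (5.99% of all genes called, 3.05% higher and 2.94% lower), and with TSA+UNC0638 1 and 3 (6.18% of all genes called, 3.64% higher and 2.54% lower). The summed two-cell markers were 1639 to 2944 CPM in these 6 libraries and 802 to 1082 CPM in LatA control libraries, and their part in these results was not tested. *Usp29* was at 138 and 136 CPM with TSA+RK-701 and at 160.0 and 150.4 CPM with TSA+A366, against 36.7 and 67.2 CPM in LatA control and 84.9 to 106.5 CPM in IVF libraries, so that these 4 libraries were above both. It rose by 1.41 ± 0.25 (adjusted p = 7.6e-04) and 1.58 ± 0.25 (adjusted p = 3.0e-04) on the log2 scale, calls that held without each library in turn. With TSA+UNC0638, *Usp29* was at 89.3 and 75.6 CPM (log2 fold change 0.67 ± 0.25, adjusted p = 0.096).

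*Meg3* (chr12:109541001-109571726, plus strand) was lower in all 3 combinations than in LatA control embryos, whose libraries were above those of every other group. *Meg3* was at 0.617 and 1.67 CPM with TSA+RK-701, 2.50 and 1.83 CPM with TSA+A366, and 2.51 and 2.65 CPM with TSA+UNC0638, against 10.4 and 12.1 CPM in LatA control libraries. Levels were 2.627 and 3.505 CPM with TSA alone, 3.40 to 5.50 CPM with RK-701 alone and 1.93 and 5.49 CPM with A366 alone. They were 4.55 and 4.86 CPM in control SCNT and 2.58 to 4.68 CPM in IVF libraries. *Meg3* fell by 3.28 ± 0.55 (adjusted p = 4.3e-04), 2.38 ± 0.52 (adjusted p = 0.0040) and 2.12 ± 0.51 (adjusted p = 0.0086) on the log2 scale. The first call was kept in every omission, the second was lost without TSA+A366 2 (-2.17, adjusted p = 0.0759), and the third without LatA control 2 or either TSA+UNC0638 library (-2.16 to -2.05, adjusted p of 0.0503 to 0.102). *Rian* was at 0.232 and 0.0697 CPM (3 and 1 reads) with TSA+RK-701 (adjusted p = 0.0057), a call lost without TSA+RK-701 2 (adjusted p = 0.108).

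*Mcts2* (chr2:152687035-152687946, plus strand) was at 159 and 131 CPM with TSA+UNC0638, against 59.0 and 44.3 CPM in LatA control and 63.7 to 84.2 CPM in IVF libraries. These were the 2 highest levels of *Mcts2* among the 25 libraries, and the rise of 1.49 ± 0.22 on the log2 scale (2.80-fold, adjusted p = 9.6e-05) was called without each library in turn. With TSA+RK-701 and TSA+A366 the log2 fold changes of *Mcts2* were 0.89 (adjusted p = 0.0085) and 0.77 (adjusted p = 0.024), under 2-fold.

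*Plagl1* was lower with TSA+RK-701 (4.48 and 4.39 CPM; log2 fold change -1.61 ± 0.43, adjusted p = 0.015) and TSA+UNC0638 (6.82 and 3.60 CPM; -1.39 ± 0.42, adjusted p = 0.037) than in LatA control embryos (17.7 and 9.40 CPM). Both calls were lost without LatA control 1 or without either treated library (log2 fold changes of -1.63 to -1.06, adjusted p of 0.0922 to 0.166, and of -1.91 to -0.84, adjusted p of 0.056 to 0.295). *Mest* was lower with TSA+RK-701 (8.49 and 6.48 CPM; -1.12 ± 0.32, adjusted p = 0.026) and TSA+A366 (8.79 and 6.76 CPM; -1.07 ± 0.32, adjusted p = 0.036) than in LatA control embryos (21.8 and 10.5 CPM), and again both calls rested on LatA control 1, without which the changes were -0.47 (adjusted p = 0.435) and -0.42 (adjusted p = 0.493). They were lost as well without either treated library (-1.33 to -0.94 with TSA+RK-701 and -1.27 to -0.89 with TSA+A366). *Kcnq1ot1* fell by 1.17 ± 0.32 with TSA+RK-701 (56.5 and 35.2 CPM against 74.0 and 132 CPM; adjusted p = 0.019), a call lost without LatA control 2 (-0.72, adjusted p = 0.26) or TSA+RK-701 2 (-0.87, adjusted p = 0.265). *Nnat* was called lower with TSA+A366 (adjusted p = 0.040) and TSA+UNC0638 (adjusted p = 0.047) on 0 to 2 reads against 62 and 12 in LatA control libraries, and was lost without LatA control 1 (adjusted p of 0.153 and 0.161), as well as without either treated library and, for TSA+UNC0638, without LatA control 2 (adjusted p of 0.0616 to 0.27).

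**Figure D5:**
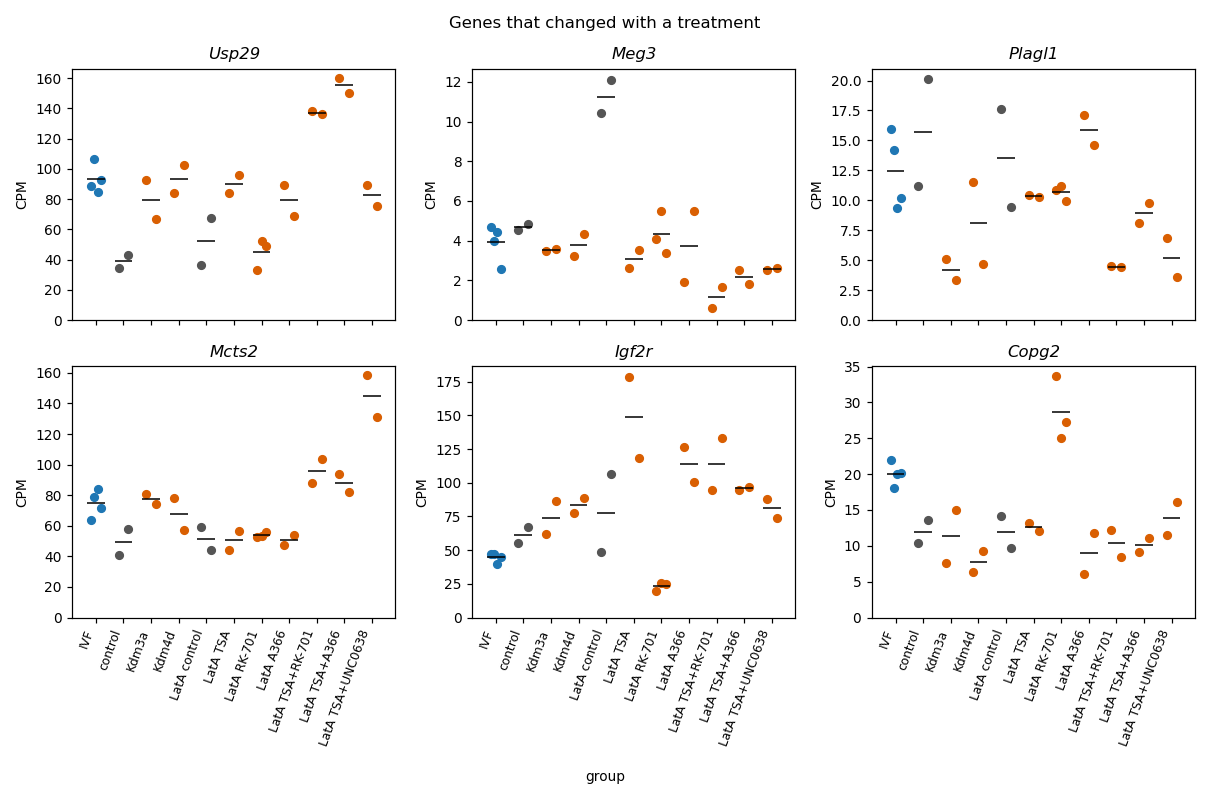
CPM on linear axes from 0 in each library (points) of the 11 groups for *Usp29*, *Meg3*, *Plagl1*, *Mcts2*, *Igf2r* and *Copg2*, with a bar at each group mean, and with IVF in blue, untreated SCNT in grey and treated SCNT in orange. *Igf2r* is lowest in the 3 RK-701 libraries, at 20.0 to 25.8 CPM, and *Mcts2* highest in the 2 TSA+UNC0638 libraries, at 131 and 159 CPM.

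The 4 genes called in all SCNT groups against IVF were not called in the combinations against their control. *Impact* had log2 fold changes of 0.11 (95% interval -0.49 to 0.71) with TSA+RK-701, -0.43 (-1.04 to 0.17) with TSA+A366 and 0.50 (-0.10 to 1.10) with TSA+UNC0638. *Phlda2* had log2 fold changes of 0.24 (-1.08 to 1.57), 0.18 (-1.14 to 1.5) and -0.71 (-2.11 to 0.70), and *Cdkn1c* of -1.49 (-3.46 to 0.47), 0.93 (-0.79 to 2.65) and -0.02 (-1.85 to 1.80). The intervals for *Phlda2* and *Cdkn1c* are wide, and each contains a 2-fold change in at least 1 direction. *Sgce* was at 17.0 and 11.3 CPM with TSA+RK-701, 17.4 and 11.6 CPM with TSA+A366, and 9.17 and 5.59 CPM with TSA+UNC0638, against 7.55 and 7.63 CPM in LatA control and 1.75 to 3.35 CPM in IVF libraries. All 4 libraries of the first 2 combinations were above both LatA control libraries. Its log2 fold changes were 0.90 (-0.11 to 1.90; adjusted p = 0.270), 0.93 (-0.07 to 1.94; adjusted p = 0.256) and -0.04 (-1.06 to 0.97).

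The G9a inhibitors were given at the same dose and for the same time, so that 4 pairs could be compared. The paper lists different potencies against G9a for them, so an equal dose need not be an equal inhibition. In these comparisons p was adjusted over all genes and, for each gene, over the 4 pairs. A366 alone (2 libraries) differed from RK-701 alone (3 libraries) in 4 imprinted genes, 1 higher and 3 lower with A366, beside 8.08% of all genes called, 3.99% higher and 4.10% lower. *Igf2r* was at 126 and 101 CPM with A366 and at 20.0 to 25.8 CPM with RK-701, a log2 difference of 2.27 ± 0.25 (adjusted p = 1.3e-06, over the 4 pairs 4.2e-09). *Copg2* was at 6.12 and 11.7 CPM against 25.1 to 33.7 CPM (-1.68 ± 0.34, adjusted p = 0.0011, over the 4 pairs 1.3e-04). *Mest* was at 9.90 and 8.31 CPM against 21.3, 23.5 and 19.8 CPM (-1.24 ± 0.30, adjusted p = 0.0059, over the 4 pairs 0.0013), a call lost without A366 2 (-1.16, adjusted p = 0.0947). *Trappc9*, a subunit of a vesicle tethering complex, was at 12.3 and 6.94 CPM against 16.6, 20.5 and 20.9 CPM (-1.01 ± 0.30, adjusted p = 0.023, over the 4 pairs 0.0087), and was lost without A366 2 (-0.70, adjusted p = 0.309) or RK-701 3 (-0.98, adjusted p = 0.0583). The groups did not overlap for any of these 4 genes.

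With TSA present, the inhibitors were not told apart in any imprinted gene over all genes tested. Between TSA+A366 and TSA+RK-701 edgeR called 0 of 41 (0% of all genes), 3 had an unadjusted p under 0.05 and DESeq2 called 0. Between TSA+UNC0638 and TSA+RK-701 it called 0 (0.946% of all genes called, 0.671% higher and 0.275% lower), with 4 under 0.05 and 1 by DESeq2, and between TSA+UNC0638 and TSA+A366 0 (0.857% of all genes called, 0.737% higher and 0.120% lower), with 3 under 0.05 and 0 by DESeq2. For TSA+A366 minus TSA+RK-701 the log2 difference of *Igf2r* was -0.25 (95% interval -0.80 to 0.30), that of *Usp29* was 0.18 (-0.33 to 0.68) and that of *Mcts2* was -0.13 (-0.57 to 0.31), so that a difference of 2-fold lay outside each interval. For TSA+UNC0638 minus TSA+A366, *Usp29* differed by -0.91 (-1.42 to -0.40; adjusted p = 0.080), *Impact* by 0.93 (0.33 to 1.54; adjusted p = 0.168) and *Mcts2* by 0.72 (0.28 to 1.16; adjusted p = 0.128), and a 2-fold difference lies within each interval. Adjusted over the 4 pairs alone, these p values were 0.0022, 0.016 and 0.0095. For TSA+UNC0638 minus TSA+RK-701, *Usp29* differed by -0.74 (-1.25 to -0.23; adjusted p = 0.191), *Mcts2* by 0.59 (0.15 to 1.03; adjusted p = 0.237) and *Igf2r* by -0.49 (-1.04 to 0.06). Adjusted over the 4 pairs alone, p was 0.0084 for *Usp29* and 0.020 for *Mcts2*. Embryos given UNC0638 without TSA were not analysed here.

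Whether TSA and a G9a inhibitor acted by more or less than the sum of their separate log2 changes was tested as an interaction. With RK-701, 2 imprinted genes were called, both positive (2.14% of all genes called, 1.38% higher and 0.752% lower). *Impact* was at 438 and 189 CPM in LatA control, 165 and 213 CPM with TSA, 218, 210.3 and 155 CPM with RK-701, and 328 and 349 CPM with both, an interaction of 1.52 ± 0.40 on the log2 scale (adjusted p = 0.036). *Igf2r* was at 48.9 and 106 CPM in LatA control, 179 and 119 CPM with TSA, 20.0 to 25.8 CPM with RK-701 and 94.6 and 133 CPM with both, an interaction of 1.33 ± 0.37 (adjusted p = 0.0496). Each call was lost in 7 of 9 single omissions. For *Impact* these were LatA control 1 (0.76, adjusted p = 0.303), TSA 1, any RK-701 library or either TSA+RK-701 library, with values of 0.76 to 1.62 and adjusted p of 0.0523 to 0.303. For *Igf2r* these were LatA control 2 (0.70, adjusted p = 0.261), either TSA library, any RK-701 library or TSA+RK-701 2, with values of 0.70 to 1.64 and adjusted p of 0.0546 to 0.325. With A366, edgeR called 0 (1.83% of all genes called, 1.28% higher and 0.554% lower), 11 had an unadjusted p under 0.05 and DESeq2 called 3.

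Of 20 genes that maintain or erase imprints, 0 were called between the mean of the SCNT groups and IVF embryos by edgeR, where 19.1% of all genes were called. Of the 20, 12 had an unadjusted p under 0.05, and the median log2 fold change was -0.09, beside -0.10 over all genes. Against IVF group by group, 3 were lower in *Kdm3a* embryos (*Dnmt3b*, *Tet3* and *Uhrf1*), 2 were lower with TSA+UNC0638 (*Dnmt3b* and *Uhrf1*), *Dppa3* was lower with RK-701, *Mbd3* was higher with A366, and 0 were called in the other 6 groups. *Dppa3*, which protects the maternal genome from demethylation, was at 4173 and 2395 CPM in LatA control libraries and at 6209 to 7546 CPM in the 6 combination libraries. It rose in all 3 combinations, by 1.05 ± 0.20 with TSA+RK-701 (adjusted p = 0.0013), 1.04 ± 0.20 with TSA+A366 (adjusted p = 0.0016) and 1.14 ± 0.20 with TSA+UNC0638 (adjusted p = 5.8e-04), and was at 5838 to 6822 CPM in IVF libraries. These rises were little over 2-fold, and calls on the 20 genes were not recomputed with libraries left out. *Dnmt3b*, a DNA methyltransferase that lays down new marks, fell in the same 3 combinations and with *Kdm3a* mRNA. It was at 15.9 and 16.6 CPM in LatA control libraries and at 4.41 to 7.95 CPM in the combinations, and the log2 fold change was -1.74 ± 0.39 with TSA+UNC0638 (adjusted p = 0.0047).

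Of 30 tested neighbours in or near imprinted loci, 2 were higher in the SCNT mean (*Asb4* and *Pon2*, both of the *Peg10*-*Sgce* locus) and 7 lower. Of all genes, 6.62% were called higher and 12.5% lower. Some of these neighbours may themselves be imprinted, which was not tested. Their changes are therefore not read as those of non-imprinted genes. One of the 7 lower, *Tfpi2*, an inhibitor of serine proteases, lies in the same *Peg10*-*Sgce* locus. *Tfpi2* was at 5.52 to 8.90 CPM in IVF libraries and at 0 to 2.31 CPM in the 21 SCNT libraries, without overlap (log2 fold change -4.69 ± 0.64, adjusted p = 2.1e-06). The other 6 lower genes belong to other loci. *Asb4*, a subunit of ubiquitin ligases, was at 17.0 to 21.9 CPM in IVF libraries and 20.3 to 67.8 CPM in SCNT libraries (log2 fold change 1.04 ± 0.19, adjusted p = 7.2e-05). *Ube3a*, the ubiquitin ligase of the *Snrpn* locus, was at 193 to 221 CPM in IVF libraries, 66.6 and 65.7 CPM in control SCNT, and 82.9 and 86.2 CPM in LatA control libraries. It rose with *Kdm3a* to 191 and 189 CPM (log2 fold change 1.52 ± 0.18, adjusted p = 1.1e-05), with *Kdm4d* to 133 and 173 CPM (1.21 ± 0.18, adjusted p = 3.6e-04), and in the 3 combinations to 156 to 238 CPM (1.11 to 1.34, adjusted p of 5.4e-05 to 2.3e-04).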

How the data were processed

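Polyadenylated RNA of pooled embryos was amplified with SMART-Seq HT kits. The authors trimmed reads with Trimmomatic, aligned them uniquely to mm10 with STAR, and deposited raw read counts per gene from featureCounts 1.6.2, which counted pairs without regard to strand and left out pairs on more than 1 feature. The submitters' notes and the file header name these tools. The table held 55375 genes and 1755056 transposable element copies (the latter not used). Symbols for 55134 genes came from GENCODE M21. The main test and thresholds follow the study's design, with edgeR in place of the DESeq2 that the authors used. The labels give injected mRNA in ng/µL and the methods in ng/mL, so no concentration is given.

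Counts were analysed with edgeR 4.0.16 (limma 3.58.1, R 4.3.3) and Python 3.11.15. TMM factors (0.883 to 1.16) were computed over genes of all chromosomes. A quasi-likelihood model with 1 term per group was fitted to all 25 libraries (common dispersion 0.136, prior degrees of freedom 12.6, residual degrees of freedom 14). CPM is after TMM, and TPM is over autosomal genes per exon length. Tests were run on the 25794 autosomal genes averaging 1 read or more, with Benjamini-Hochberg adjustment. Standard errors came from the log2 fold change and its F statistic, and intervals cover 95%. Every library was its own pool, so p measures the spread between pools. The labels give no batch. The smallest chi-square per degree of freedom within a group was 6.68, so replicates differed by more than sampling noise.

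The members and lists were chosen with earlier results of these data known. Full values are given for the 23 genes called in the SCNT mean or an untreated control against IVF or in a treatment against its control, or among the 6 highest in TPM, and for up to 8 other genes. *Trappc9*, *Dlk1*, *Nap1l5*, *Peg3*, *Peg10*, *Blcap*, *Ascl2*, *Tet3*, *Uhrf1* and *Mbd3* were named after their values were seen. On simulated data, 132 of 200 genes changed 4-fold in control SCNT against IVF (66.0%, 25190 genes) and 119 of 200 in TSA+RK-701 against LatA control (59.5%, 25170 genes) were recovered, with 10 and 6 other calls. The changed genes were drawn from those averaging at least 10 reads, so these rates do not apply to genes with fewer reads. Alternatives were RLE factors, DESeq2 1.42.0, no filter, 10 reads in 2 libraries, only the compared libraries, both untreated controls as the reference, the replicate number as a block, and leaving out each library.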

Additional observations from a re-analysis of the deposited data

Results flagged for a closer look

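*Snrpn* in the 4 IVF libraries was at 45.9, 46.4, 49.4 and 45.8 CPM, and the gap between IVF 3 and the nearest other library was 0.832 of the range, above Dixon's 95% limit for 4 values. Of 23 genes examined in this way, 1 stood out, and chance alone flags about 1 group in 20.

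The effect of RK-701 differed with and without TSA for *Impact* (interaction of 1.52 on the log2 scale) and *Igf2r* (1.33), by the test of the interaction itself, and each call was lost in 7 of 9 single omissions. The effects of A366 alone and RK-701 alone, both set against the same LatA control, differed by the test of the difference for *Igf2r* (2.27), *Copg2* (-1.68), *Mest* (-1.24) and *Trappc9* (-1.01). For these 4 genes all 3 RK-701 libraries lay on the same side of both A366 libraries. The RK-701 libraries also had the highest summed oocyte markers of the 25 libraries (1954 to 2455 CPM, against 1095 to 1407 CPM with A366), whose part in these differences was not tested. These sums include the untested *Bmp15* of the X chromosome. Over the 8 tested oocyte markers, the median log2 fold change was -0.18 for RK-701 against IVF embryos and -0.84 for A366 against RK-701.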

How the results depend on the processing

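The 138 calls made on 27 imprinted genes over 26 comparisons were recomputed under each alternative, and calls on other genes were not. Of the 138 calls, 105 held under every alternative other than leaving out a library and 76 under all. One reversed its sign: *Dlk1* in *Kdm4d* embryos against IVF, at -2.96 (adjusted p = 0.683) without *Kdm4d* 2, against 6.58 without *Kdm4d* 1. Counts of called genes that moved by more than 1.5 times were as follows, and the cause was not tested. With only the compared libraries, RK-701 gave 1, TSA+RK-701 3, TSA+A366 2, TSA+UNC0638 2 and the interaction with RK-701 0. With both untreated controls as reference, *Kdm4d* gave 5 and TSA 3. Without a filter, *Kdm4d* gave 4, TSA 2, A366 1, TSA+UNC0638 against TSA+RK-701 1 and the interaction with A366 2. With DESeq2 these were 4, 2, 1, 1 and 3. With RLE factors or with 10 reads in 2 libraries, the interaction with RK-701 gave 1. RLE factors moved the median of all genes by at most 0.074.

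Leaving out each library in turn gave 9 to 13 calls in the SCNT mean against IVF, 8 to 12 in control SCNT and 9 to 12 in LatA control. Against IVF the range was 6 to 9 for *Kdm3a*, 5 to 10 for *Kdm4d*, 8 to 10 for TSA, 7 to 9 for RK-701, 9 to 12 for A366, 8 to 9 for TSA+RK-701, 7 to 10 for TSA+A366 and 5 to 10 for TSA+UNC0638. Against the own control it was 1 to 2 for *Kdm3a*, 0 to 2 for *Kdm4d*, 0 to 4 for TSA, 1 to 5 for RK-701, 0 to 5 for A366, 2 to 6 for TSA+RK-701, 1 to 5 for TSA+A366 and 1 to 4 for TSA+UNC0638. It was 2 to 5 for A366 against RK-701, 0 to 3 for the interaction with RK-701 and 0 to 7 for that with A366. Where a group was left with 1 library, that library was taken to vary like the other groups.

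Replicate numbers did not pair the libraries: deviations of same-numbered libraries correlated at -0.322 to 0.165 (median -0.00423, over 0.1 in 4 of 111 pairs). With the replicate number as a block, LatA control against IVF gave 7 calls, RK-701 1, TSA+A366 2 and the interaction with RK-701 0. Most groups had 2 libraries, which limits the precision of every comparison between them.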
